A study of Mus musculus with 60 samples.

Results

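The genes described here encode the enzymes that write and remove DNA methylation in mouse embryonic stem cells (mESCs): the methyltransferases Dnmt1, Dnmt3a and Dnmt3b, the catalytically inactive cofactor Dnmt3l, the hemimethylated-DNA binding protein Uhrf1, the methylcytosine dioxygenases Tet1, Tet2 and Tet3, and the DNA glycosylase Tdg. These 9 genes were taken by name from the 55487 genes of the count tables, all 9 were found, and all 9 passed the filter on low counts in every comparison. Their RNA was followed in 60 RNA-seq libraries of 20 groups, with 3 biological replicates per group, from a study of how parental histones are passed on at the replication fork. All cells were derived from E14JU mESCs (129/Ola) and carried POLE4, a leading strand histone recycling factor, fused to a degradation tag (dTAG). One line had wild-type MCM2 (WT background) and the other carried MCM2-2A, a mutant of the replicative helicase subunit that is defective in histone recycling to the lagging strand. Each line was kept for 24 h either in DMSO, which gave the groups Ctrl and Ctrl MCM2-2A, or in dTAG-13, which depletes POLE4 and gave dPOLE4 and dPOLE4 MCM2-2A, in serum with leukemia inhibitory factor (LIF). These cells were T0 of a differentiation experiment, in which LIF was withdrawn and retinoic acid (RA) was added for 12 h (T12), 24 h (T24) or 60 h (T60), and in a second experiment the same 4 conditions were kept for 96 h in serum with LIF. Each background was 1 edited line, so the MCM2-2A mutation and the line that carries it cannot be told apart.

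DNA methylation in mammals is placed on CpG sites by DNMT3A and DNMT3B, which DNMT3L assists in germ cells and early embryonic cells, and is copied onto the new strand after replication by DNMT1, which UHRF1 recruits to hemimethylated CpGs. TET enzymes oxidize 5-methylcytosine, and TDG excises the more oxidized forms so that base excision repair can restore an unmodified cytosine. Naive mESCs are known for high expression of Tet1 and Tet2, and Tet3 is better known from the oocyte, the zygote and neural tissue.

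The 48 libraries of the RA experiment held 10461077 to 46609151 counts each, and the 12 libraries of the 96 h experiment 7126100 to 23598266. Levels are given as normalised CPM with SD over 3 libraries, and differences as log2 fold changes with SE from edgeR's quasi-likelihood test, with p-values adjusted over all genes and repeat subfamilies tested. To be called, a gene needed an adjusted p below 0.01 together with a log2 fold change beyond 0.58 in either direction, and only called genes are said to have risen or fallen. At T0 the pluripotency markers Pou5f1, Nanog, Sox2, Zfp42, Klf4, Esrrb and Utf1 summed to 2925 CPM in Ctrl, against 163 CPM at T60. Because these were bulk samples, fewer cells of a type and less RNA per cell cannot be told apart. At T0, the libraries with replicate number 1 stood apart from numbers 2 and 3 in all 4 conditions for some of the members. Tet1 and Tet2 were lowest in number 1 in 4 of 4 T0 groups (log2 ratio to the other libraries from -0.55 to -0.23 for Tet1 and from -0.34 to -0.21 for Tet2), whereas Dnmt3l (0.20 to 0.31) and Dnmt3b (0.03 to 0.19) were highest there in 4 of 4. For Dnmt1, Dnmt3a, Uhrf1, Tet3 and Tdg, number 1 was neither highest nor lowest in all 4 groups. Results that rest on T0 were therefore also computed without the 4 T0 libraries of number 1.

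CpG density in the 250 bases upstream of RefSeq transcription starts varied widely between the members, and 3 of these windows are shown, one of a gene that rose with RA (Tet3) and those of 2 genes that fell (Tet2 and Dnmt3b). Each is the only RefSeq promoter window of its gene in GRCm38.p6 (mm10), is written 5′ to 3′ on the strand of the gene and has its CpG dinucleotides in capitals. The start behind the Tet3 window, and that behind the Tet2 window, lie inside the span of the gene as GENCODE M21 gives it.
Tet3, chr6:83441679-83441928, minus strand, 17 CpGs: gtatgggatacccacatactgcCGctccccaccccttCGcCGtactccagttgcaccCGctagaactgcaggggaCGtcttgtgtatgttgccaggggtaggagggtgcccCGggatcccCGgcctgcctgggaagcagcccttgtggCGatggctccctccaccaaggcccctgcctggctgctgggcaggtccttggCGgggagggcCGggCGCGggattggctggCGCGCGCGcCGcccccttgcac
Tet2, chr3:133544391-133544640, minus strand, 51 CpGs: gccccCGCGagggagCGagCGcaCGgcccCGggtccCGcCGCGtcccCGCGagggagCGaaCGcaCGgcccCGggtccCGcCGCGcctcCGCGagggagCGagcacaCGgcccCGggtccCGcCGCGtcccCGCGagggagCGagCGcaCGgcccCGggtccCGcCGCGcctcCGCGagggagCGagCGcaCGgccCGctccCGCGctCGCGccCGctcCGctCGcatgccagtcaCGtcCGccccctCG
Dnmt3b, chr2:153649199-153649448, plus strand, 21 CpGs: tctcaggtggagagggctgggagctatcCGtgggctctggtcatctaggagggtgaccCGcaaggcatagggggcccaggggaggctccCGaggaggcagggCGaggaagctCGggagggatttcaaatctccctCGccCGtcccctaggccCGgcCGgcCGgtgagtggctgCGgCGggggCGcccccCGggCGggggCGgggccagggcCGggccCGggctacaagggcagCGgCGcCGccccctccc
The median of all 32851 promoter windows was 6 CpGs. As many CpGs as upstream of Tet2 were present in 0.067% of the windows, against 16.3% for Dnmt3b and 23.5% for Tet3. Over the 16 windows of the 9 members, CpG counts ranged from 2 at a Dnmt1 start to 51 at Tet2, and the 3 windows of Dnmt3l held 3 to 5. The half-site letters AGGTCA, to which retinoic acid receptors can bind as repeats, were found on either strand in 3 of the 16 member windows, each at a start inside the gene span (Dnmt3a, Tet1 and Uhrf1), and in 14.02% of all windows. The variant AGTTCA was in none of the 16 and in 11.8% of all windows. These letter matches are descriptions of the sequence and not binding sites.

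Among the TET genes, Tet1 and Tet2 fell and Tet3 rose during RA differentiation. Tet1 (ENSMUSG00000047146, chromosome 10, 62804570 to 62908996, minus strand) was measured at 698, 855 and 809 CPM in the 3 Ctrl libraries at T0. It was measured at 355, 307 and 374 CPM at T12 and 181, 178 and 166 CPM at T24. At T60 it was down to 59.6, 68.8 and 64.4 CPM, so that each time point lay wholly below the one before it. The log2 fold change against T0 was -1.19 (SE 0.09) at T12, -2.16 (SE 0.06) at T24 and -3.64 (SE 0.09, adjusted p = 4.19e-14) at T60. The T60 level was 8.17% of T0 in Ctrl, 9.47% in dPOLE4, 9.39% in Ctrl MCM2-2A and 12.1% in dPOLE4 MCM2-2A. The dPOLE4 MCM2-2A libraries, at 73.3, 79.6 and 69.7 CPM, lay above those of Ctrl without overlap. The dPOLE4 libraries, at 70.7, 62.5 and 62.4 CPM, and the Ctrl MCM2-2A libraries, at 69.1, 69.3 and 66.5 CPM, overlapped with Ctrl. Tet1 fell in 12 of 12 comparisons with T0, and also in 8 of 8 steps from one time point to the next, by 0.98 to 1.43 on the log2 scale per step after T12.

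Tet2 (ENSMUSG00000040943, chromosome 3, 133463679 to 133545139, minus strand) lacks the CXXC DNA binding domain that TET1 carries. In Ctrl, most of the Tet2 decrease on the log2 scale came after T24. Ctrl libraries were at 268, 330.3 and 318 CPM at T0 and 195, 184 and 182 CPM at T24. They dropped to 55.02, 54.3 and 48.9 CPM at T60, with no overlap between these time points. The step from T24 to T60 was -1.81 (SE 0.07) in Ctrl and -1.51 (SE 0.08) in dPOLE4, and -1.03 (SE 0.05) in Ctrl MCM2-2A. In dPOLE4 MCM2-2A the same step was -0.56 (SE 0.08) and was not called, as it missed the fold change threshold. By library, T60 was at 71.4, 57.8 and 60.3 CPM in dPOLE4, 68.4, 69.02 and 69.3 CPM in Ctrl MCM2-2A and 79.4, 79.6 and 84.3 CPM in dPOLE4 MCM2-2A. All 9 of these libraries lay above the 3 of Ctrl, and those of dPOLE4 MCM2-2A lay above all others. At T60, Tet2 stood at 17.3% of its T0 level in Ctrl, 22.6% in dPOLE4, 34.4% in Ctrl MCM2-2A and 46.5% in dPOLE4 MCM2-2A. Tet2 fell in 7 of 12 comparisons with T0, among them T60 in all 4 conditions. At T12 and T24 it fell in Ctrl and, at T24, in dPOLE4, and neither of the 2 groups with MCM2-2A passed the threshold at these times. The Ctrl call at T12 was lost without number 2 of T0 (-0.57) or number 2 of T12 (-0.54). The dPOLE4 call at T24 was lost without number 2 of T0 (-0.57). In the test of the difference itself, given below, the RA response of Tet2 was called different between backgrounds at T60 alone.

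Tet3 (ENSMUSG00000034832, chromosome 6, 83362373 to 83459084, minus strand), whose longest forms carry a CXXC domain, took the opposite course. It was measured at 27.8, 24.8 and 24.8 CPM at T0 and 44.2, 44.9 and 42.997 CPM at T24 in Ctrl. At T60 the 3 libraries reached 122, 120.2 and 140.3 CPM. The rise at T60 was 4.93-fold in Ctrl, 4.297-fold in dPOLE4, 4.14-fold in Ctrl MCM2-2A and 3.51-fold in dPOLE4 MCM2-2A, with log2 fold changes of 2.28 (SE 0.08, adjusted p = 1.87e-12) in Ctrl and 1.79 (SE 0.09, adjusted p = 9.38e-09) in dPOLE4 MCM2-2A. Tet3 rose in 7 of 12 comparisons with T0, at T60 in all 4 conditions and at T24 in all but dPOLE4 MCM2-2A (0.45, SE 0.09). The 2 MCM2-2A groups were lowest at T60, with 101, 105 and 114 CPM in Ctrl MCM2-2A and 91.1, 92.2 and 80.8 CPM in dPOLE4 MCM2-2A, and neither overlapped with Ctrl.

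Per length of exon, the TET pool turned over in composition. Of the summed Tet1, Tet2 and Tet3 level in Ctrl at T0, Tet1 made up 72.1 ± 0.245%, Tet2 25.6 ± 0.281% and Tet3 2.22 ± 0.386%. At T60 the shares were 27.9 ± 1.78% for Tet1, 21.004 ± 2.04% for Tet2 and 51.1 ± 3.001% for Tet3, so that Tet3 led the family. In dPOLE4 MCM2-2A at T60 the same shares were 32.2 ± 1.07%, 32.4 ± 2.202% and 35.4 ± 1.49% for Tet1, Tet2 and Tet3, so that no gene held most of the pool. These shares depend on the length used for each gene: with the longest transcript instead of all exon bases, Tet2 led there and at T24 in all 4 conditions.

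**Figure D1:**
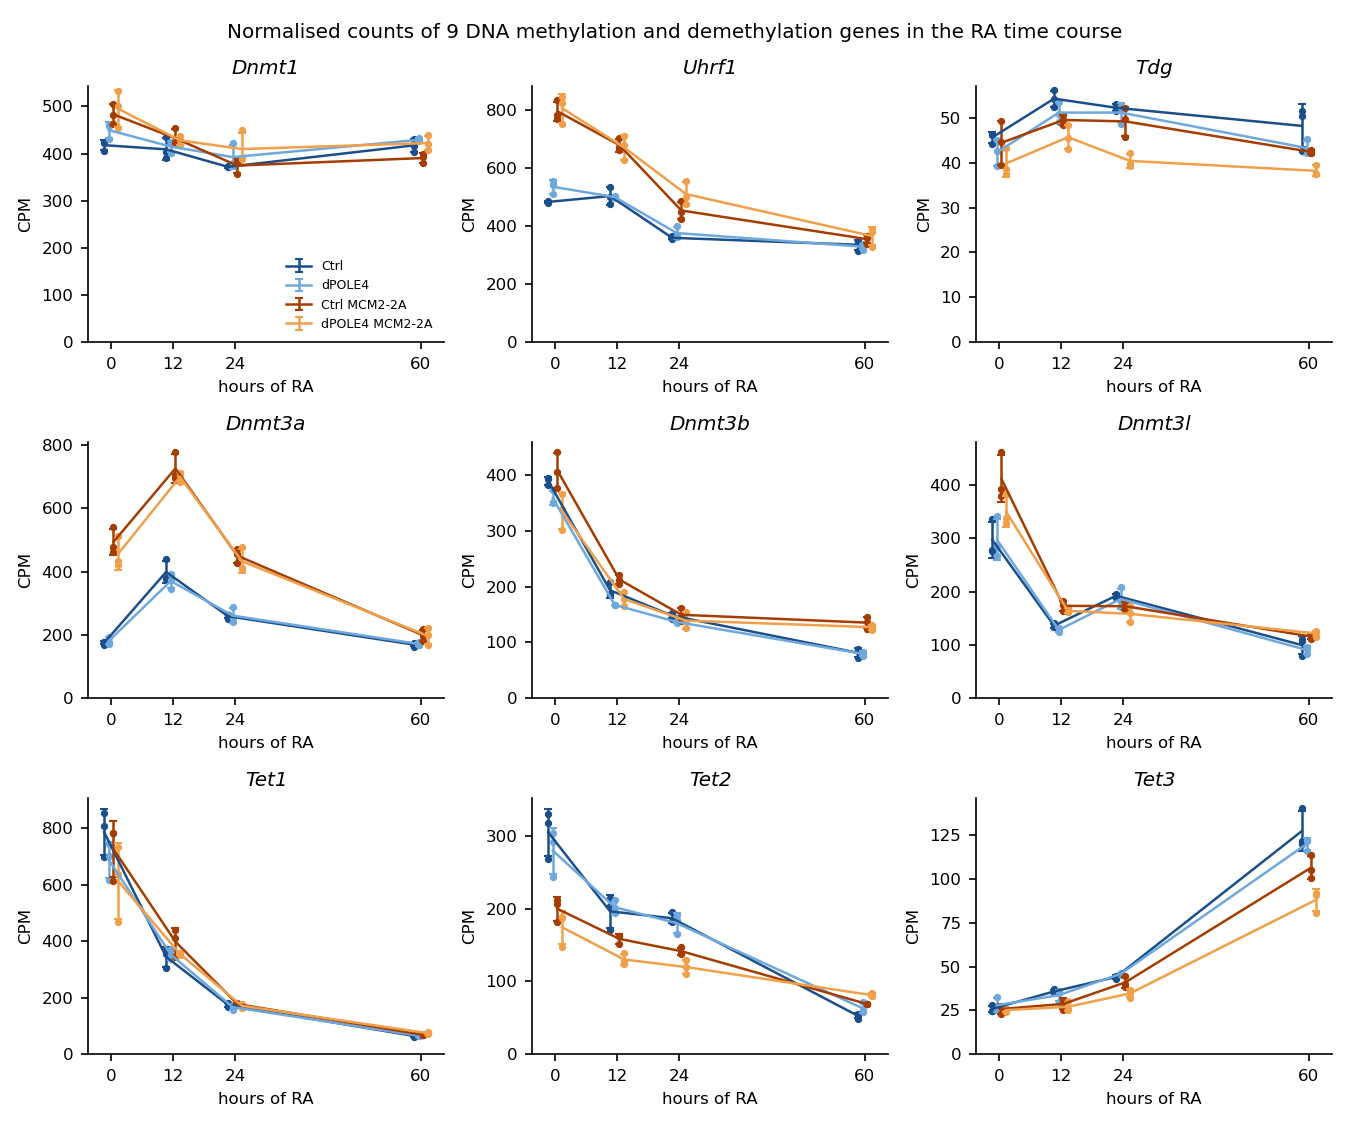
Normalised counts (CPM, linear axes from 0) of the 9 genes against hours of RA, with points for the 3 libraries of each group and lines and bars for the mean and SD of Ctrl, dPOLE4, Ctrl MCM2-2A and dPOLE4 MCM2-2A. Tet1, Tet2, Dnmt3b and Dnmt3l end below their T0 level in all 4 conditions and Tet3 above it, while Dnmt3a peaks at T12 and starts higher in both MCM2-2A groups.

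The 3 DNMT3 genes did not move together. Dnmt3b (ENSMUSG00000027478, chromosome 2, 153649450 to 153687730, plus strand) fell at every time point in every condition, in 12 of 12 comparisons. In Ctrl its libraries were at 395, 393 and 382 CPM at T0 and 187, 209 and 184 CPM at T12. By T60 they were at 83.9, 72.7 and 87.4 CPM, without overlap (-2.28, SE 0.07, adjusted p = 4.56e-13). In the MCM2-2A background the log2 fold change was similar at T24 (-1.43, SE 0.07 against -1.39 (SE 0.04) in Ctrl). The step from T24 to T60 was -0.14 (SE 0.07) in Ctrl MCM2-2A and -0.13 (SE 0.09) in dPOLE4 MCM2-2A, neither called, against called log2 fold changes of -0.85 in Ctrl and -0.77 in dPOLE4.

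Dnmt3l (ENSMUSG00000000730, chromosome 10, 78041947 to 78063622, plus strand) also fell in 12 of 12 comparisons, but in Ctrl it did not fall step by step. The 3 Ctrl libraries were at 336, 277 and 279 CPM at T0 and 140.4, 133 and 134 CPM at T12. They stood at 195, 194 and 187 CPM at T24 and 112, 79.3 and 107 CPM at T60. The T24 libraries thus lay wholly above those of T12 and T60. The step from T12 to T24 was 0.50 (SE 0.05, adjusted p = 5.2e-05) in Ctrl and 0.54 (SE 0.07, adjusted p = 0.000191) in dPOLE4, both under the fold change threshold, and -0.00 (SE 0.06) in Ctrl MCM2-2A and -0.05 (SE 0.07) in dPOLE4 MCM2-2A. Without the T0 libraries of number 1, the decrease at T24 no longer passed the fold threshold in Ctrl (-0.53) and dPOLE4 (-0.57). Dnmt3l shares 67 exon bases with Aire on the opposite strand. The libraries were strand-specific, but the strand setting of the counting is not given in the sources used here.

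Dnmt3a (ENSMUSG00000020661, chromosome 12, 3806007 to 3914443, plus strand) rose first. In Ctrl it was measured at 169, 177 and 178 CPM at T0 and 378, 439 and 379 CPM at T12. It came back to 251, 263 and 262 CPM at T24 and 173, 162 and 171 CPM at T60. The T60 libraries overlapped with those of T0, and those of T12 lay above all others. It rose at T12 in all 4 conditions, by 2.28-fold in Ctrl (1.19, SE 0.07, adjusted p = 7.37e-08), 2.05-fold in dPOLE4, 1.47-fold in Ctrl MCM2-2A and 1.53-fold in dPOLE4 MCM2-2A. The call in Ctrl MCM2-2A lay close to the fold threshold (0.59, SE 0.07) and was lost in 3 alternatives and without any 1 of 3 libraries. Against T0, Dnmt3a fell at T60 in Ctrl MCM2-2A (-1.30, SE 0.08, adjusted p = 1.15e-08) and in dPOLE4 MCM2-2A (-1.24, SE 0.11, adjusted p = 1.33e-06) but was not called in Ctrl (-0.07, 95% interval -0.19 to 0.05) or dPOLE4 (-0.10). The antisense gene Dnmt3aos shares 133 exon bases with it.

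Per length of exon, Dnmt3a made up 5.65 ± 0.492% of the summed DNMT3 level in Ctrl at T0 and 22.3 ± 1.16% at T12, and the share of Dnmt3b went from 41.1 ± 2.14% at T0 to 26.9 ± 1.31% at T60. In Ctrl MCM2-2A, Dnmt3a held 11.99 ± 0.217% at T0 and 30.4 ± 0.846% at T12, where Dnmt3b held 29.1 ± 0.361%. Dnmt3l was the largest share in all 20 groups, whichever length was used.

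**Figure D2:**
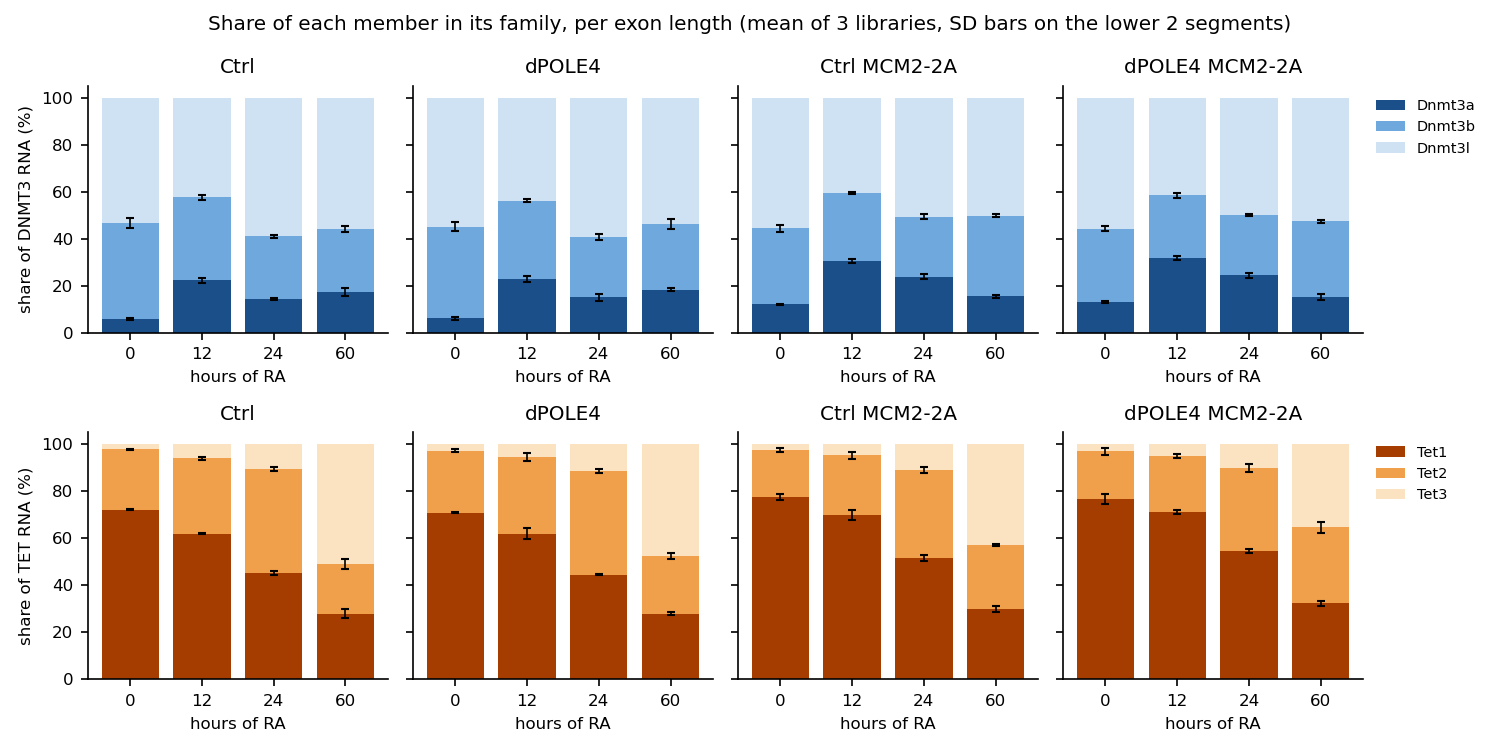
Share of each gene (%) in the summed per-length level of its family, as stacked bars for the means of 3 libraries at 0, 12, 24 and 60 h of RA in the 4 conditions, with SD bars on the lower segments. The upper row shows Dnmt3a, Dnmt3b and Dnmt3l and the lower row Tet1, Tet2 and Tet3, where the Tet3 segment grows from 2.22% at T0 to 51.1% at T60 in Ctrl and to 35.4% in dPOLE4 MCM2-2A.

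At T60, Dnmt3l was measured at 92.5, 82.6 and 95.97 CPM in dPOLE4, 118, 110.1 and 119 CPM in Ctrl MCM2-2A and 125, 124 and 115 CPM in dPOLE4 MCM2-2A, which is 30.4%, 28.1% and 34.7% of T0 against 33.4% in Ctrl. None of the differences between conditions at T60 was called for this gene.

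In Ctrl, the maintenance genes Uhrf1 and Dnmt1 and the glycosylase gene Tdg were not called at any time against T0. Uhrf1 (ENSMUSG00000001228, chromosome 17, 56303321 to 56323486, plus strand) was at 487, 479 and 484 CPM in Ctrl at T0 and 345, 315 and 347 CPM at T60, a difference of -0.55 (SE 0.06) that did not overlap but stayed under the fold threshold. It fell at T60 in dPOLE4 (-0.73, SE 0.05), and at T24 and T60 in Ctrl MCM2-2A (-1.15, SE 0.06 at T60) and dPOLE4 MCM2-2A (-1.17, SE 0.09 at T60). Dnmt1 (ENSMUSG00000004099, chromosome 9, 20907209 to 20959888, minus strand) kept group means between 372 and 495 CPM over all 20 groups and was called by edgeR in 0 of the 12 comparisons with T0, with 8 at an unadjusted p below 0.05. Tdg (ENSMUSG00000034674, chromosome 10, 82629828 to 82650799, plus strand), which shares 367 exon bases with Glt8d2 on the opposite strand, kept means between 35.3 and 54.3 CPM and was also called in 0 of 12, with 6 at an unadjusted p below 0.05. From 6643 of 18284 features (dPOLE4 MCM2-2A at T12) to 13884 of 18082 (Ctrl at T60) had such an unadjusted p in these 12 comparisons. For Dnmt1 the 95% interval at T60 in Ctrl was -0.14 to 0.10 on the log2 scale, and for Tdg -0.11 to 0.23.

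In counts, 61 of the 108 member comparisons with T0 were called. In Ctrl, 5 of 9 members were called at T12, 5 at T24 and 5 at T60, where 11.3%, 21.8% and 50.6% of all features tested were called. In dPOLE4 the counts were 4, 5 and 6, beside 11.7%, 19.2% and 48.1% of all features. In Ctrl MCM2-2A they were 4, 5 and 7, beside 8.65%, 23.9% and 47.5%, and in dPOLE4 MCM2-2A 4, 4 and 7, beside 7.79%, 19.6% and 42.2%. At T60 about as large a share of all features was called as of the members in Ctrl, so that count is not a result about the members. The 3 comparisons of a condition share their T0 libraries. Without the T0 libraries of number 1, 60 of 108 were called.

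Of the 72 member steps between time points after T12, 26 were called. From T12 to T24 the counts were 2 of 9 in Ctrl (6.97% of all features), 1 in dPOLE4 (6.3%), 2 in Ctrl MCM2-2A (8.83%) and 2 in dPOLE4 MCM2-2A (7.75%). From T24 to T60 they were 6 in Ctrl (35.7%), 6 in dPOLE4 (32.0%), 4 in Ctrl MCM2-2A (31.6%) and 3 in dPOLE4 MCM2-2A (25.3%). Tet1 and Dnmt3a carried the calls of the first step, Dnmt3a falling in 7 of the 8 steps, and Tet3 rose only in the step from T24 to T60, in all 4 conditions. The Dnmt3a call from T12 to T24 in Ctrl was lost with 1 library left out (-0.55). Its call from T24 to T60 in dPOLE4 was lost with any 1 of 3 (-0.53 at the smallest).

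Before differentiation, Dnmt3a and Uhrf1 were higher and Tet2 was lower in the MCM2-2A than in the WT background, with POLE4 present and with POLE4 depleted. Dnmt3a was measured at 539.8, 463 and 477 CPM in Ctrl MCM2-2A against 169, 177 and 178 CPM in Ctrl at T0, and at 512, 434 and 420.1 CPM in dPOLE4 MCM2-2A against 177, 171 and 193 CPM in dPOLE4. Every MCM2-2A library lay above every WT library. It was 2.83-fold higher in the Ctrl pair (1.48, SE 0.06, adjusted p = 1.39e-08) and 2.52-fold in the dPOLE4 pair (1.33, SE 0.09, adjusted p = 8.17e-07), which has no library in common with the first. In the 96 h experiment, Ctrl MCM2-2A was at 415, 427 and 369 CPM against 186, 228 and 199.95 CPM in Ctrl (1.00, SE 0.09, adjusted p = 6.1e-06). At T60 the difference was 0.24 (SE 0.07) and 0.20 (SE 0.09) and was not called, so that Dnmt3a was higher in 8 of 10 comparisons, all but T60.

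Uhrf1 was higher in MCM2-2A at T0 only, with 834, 771 and 783 CPM against 487, 479 and 484 CPM in the Ctrl pair (0.70, SE 0.05, adjusted p = 6.51e-07) and 844, 825 and 751 CPM against 540.3, 510.5 and 557 CPM in the dPOLE4 pair (0.59, SE 0.07, adjusted p = 6.76e-05). The groups did not overlap in either pair. The call in the dPOLE4 pair lay at the fold threshold and was lost without the libraries of number 1 (0.56) and without any 1 of 3 single libraries (0.55 at the lowest). At T12, T24 and 96 h the log2 fold change lay between 0.34 and 0.45 in both pairs, under that threshold.

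Tet2 was lower in MCM2-2A in the pluripotent state. Ctrl MCM2-2A was at 181, 207 and 212 CPM against 268, 330.3 and 318 CPM at T0, which is 65.5% of Ctrl (-0.62, SE 0.09, adjusted p = 0.00011). After 96 h it was at 223, 226 and 245 CPM against 399, 324 and 360.1 CPM (-0.63, SE 0.09, adjusted p = 0.000147). In the dPOLE4 pair the log2 fold change was -0.68 (SE 0.11) at T0 and -0.81 (SE 0.06) at 96 h, both called, and the call at T12 was made in the dPOLE4 pair alone. Of these 5 Tet2 calls, 4 lay close enough to the fold threshold to be lost with a library left out: the Ctrl pair at T0 with either of 2 libraries (number 2 of Ctrl, -0.57, or number 1 of Ctrl MCM2-2A, -0.54), the Ctrl pair at 96 h with 1 (number 1 of Ctrl, -0.55), the dPOLE4 pair at T0 with 1 (number 1 of dPOLE4 MCM2-2A, -0.57) and at T12 with either of 2 (number 3 of dPOLE4, -0.57, or number 2 of dPOLE4 MCM2-2A, -0.577). At T60 the sign was turned, with 0.40 and 0.36, neither called. In the same 2 comparisons Dnmt3b was higher in MCM2-2A, with 145, 125 and 136 CPM against 83.9, 72.7 and 87.4 CPM in the Ctrl pair (0.75, SE 0.08, adjusted p = 1.75e-06) and 132, 128 and 122 CPM against 83.01, 80.7 and 74.9 CPM in the dPOLE4 pair (0.67, SE 0.07, adjusted p = 4.41e-06). Dnmt1, Dnmt3l, Tet1, Tet3 and Tdg were called by edgeR in 0 of the 10 comparisons between backgrounds, with 22 of these 50 tests at an unadjusted p below 0.05 and sizes under the fold threshold wherever the adjusted p was below 0.01. Such an unadjusted p was found for 7680 of 17623 features (Ctrl pair at 96 h) to 9956 of 18511 (dPOLE4 pair at T12).

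In counts, 17 of 90 member comparisons between backgrounds were called. They were 3 of 9 in each pair at T0 (18.9% of all features in the Ctrl pair and 18.6% in the dPOLE4 pair), 1 and 2 at T12 (14.5% and 18.4%), 1 and 1 at T24 (17.3% and 16.1%), 1 and 1 at T60 (16.9% and 20.4%) and 2 and 2 at 96 h (15.7% and 16.4%). The share of members called was near that of all features.

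To see whether a called member moved with its neighbours on the chromosome, the genes with starts within 2 Mb were measured too. In Ctrl MCM2-2A against Ctrl at T0, their median log2 fold change was -0.09 over 27 genes around Dnmt3a, 0.08 over 59 genes around Uhrf1 and -0.10 over 18 genes around Tet2. Around Dnmt3b it was -0.08 over 67 genes at T60. Over the 10 comparisons, no median around these 4 genes went beyond -0.15 or 0.16.

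**Figure D3:**
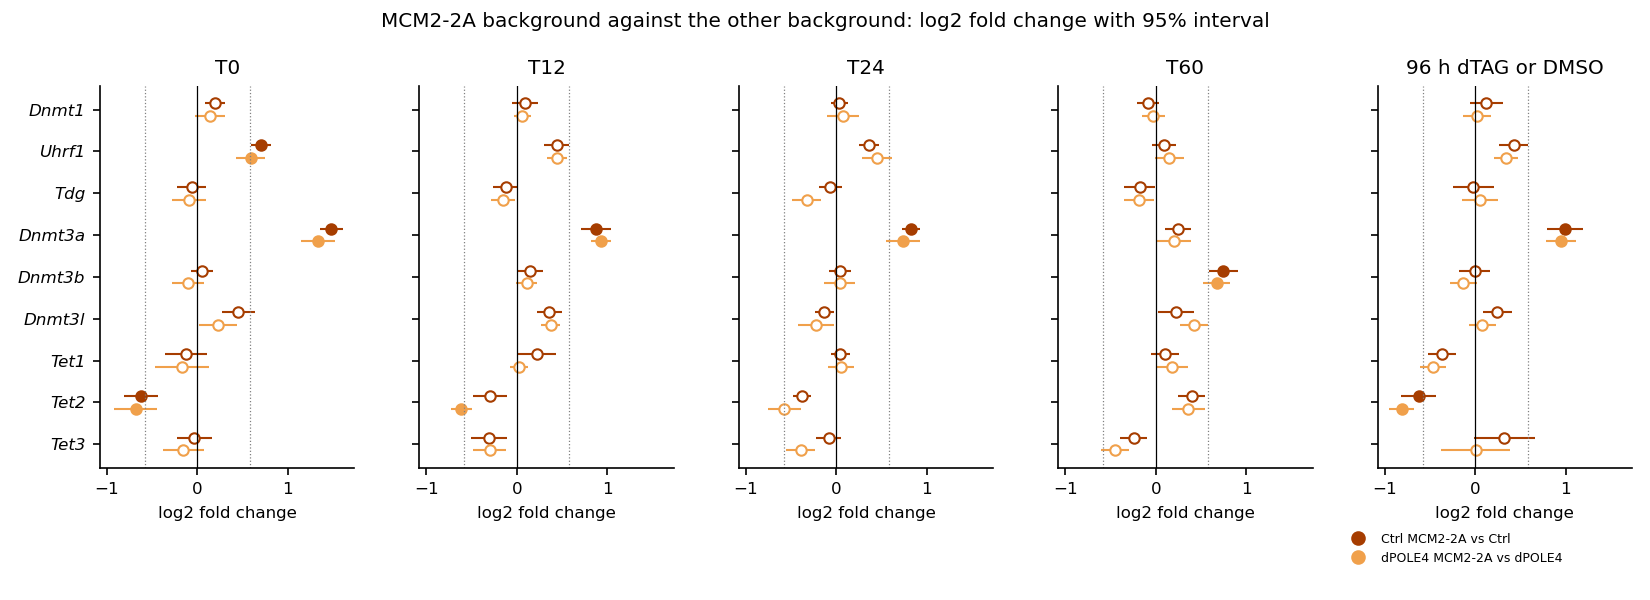
Log2 fold change of each gene in the MCM2-2A background against the WT background (x axis, with 95% intervals) at T0, T12, T24, T60 and 96 h, for the Ctrl pair and the dPOLE4 pair, with filled points for called genes and dotted lines at the fold threshold of 0.58 in both directions. Dnmt3a sits right of the threshold everywhere but at T60, where Dnmt3b is the called gene.

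Summed markers of other cell types are given beside the differences of Tet2, Dnmt3b and Tet3 at that time. The 7 pluripotency markers summed to 149.6 to 182 CPM in the Ctrl libraries, 334 to 447 CPM in Ctrl MCM2-2A and 439.9 to 583 CPM in dPOLE4 MCM2-2A. The 5 neural progenitor markers summed to 345 to 373, 227 to 260.5 and 169.97 to 186 CPM in the same order. The 5 primitive endoderm markers gave 280.01 to 349.7, 512 to 565 and 402 to 447 CPM. The MCM2-2A groups therefore held more RNA of pluripotency and endoderm markers and less of neural markers at T60. The 4 trophoblast markers gave 41.1 to 56.8, 166 to 192 and 206 to 279 CPM, and the 5 fibroblast markers 399 to 545, 205 to 213 and 117 to 135 CPM. The 5 markers of 2-cell-like cells gave 222 to 302, 137 to 185 and 199 to 257 CPM, and no marker of any list was at 0. In dPOLE4 at T60 the lists gave 154 to 179 CPM for pluripotency, 301 to 316 for neural, 227 to 273 for endoderm, 58.999 to 59.2 for trophoblast, 334 to 353 for fibroblast and 198 to 235 for 2-cell-like markers, so that neural, endoderm and fibroblast markers lay below Ctrl and trophoblast markers above it without overlap.

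The lists stood apart at other times as well. At T0, Ctrl MCM2-2A and Ctrl did not overlap in 5 of 6 lists. The neural markers were at 63.5 to 77.4 against 139.8 to 167 CPM and the fibroblast markers at 35.7 to 48.1 against 51.03 to 65.1 CPM, both lower in MCM2-2A. The pluripotency markers at 3038 to 3530.1 against 2876 to 2987 CPM, the endoderm markers at 37.8 to 48.3 against 13.2 to 23.99 CPM and the trophoblast markers at 30.4 to 35.7 against 18.2 to 25.7 CPM were higher. After 96 h, 2 of 6 lists did not overlap in the Ctrl pair, the endoderm markers at 45.8 to 54.4 against 13.7 to 18.1 CPM and the trophoblast markers at 28.7 to 33.4 against 11.8 to 14.9 CPM. At T12 and T24 it was 4 and 5 of 6 in the Ctrl pair, with endoderm and trophoblast markers higher and neural and fibroblast markers lower in MCM2-2A at both times. Their part in the results for the 9 genes was not tested.

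Whether RA moved a gene differently in the 2 backgrounds was tested as the difference of the RA responses, Ctrl MCM2-2A minus Ctrl. Of the 27 such tests, 7 were called, in 5 genes. For Dnmt3a the difference was -0.60 (SE 0.10, adjusted p = 0.00732) at T12, -0.67 (SE 0.08, adjusted p = 3.08e-05) at T24 and -1.27 (SE 0.10, adjusted p = 3.54e-08) at T60, so the gene rose less and then fell more in MCM2-2A, from a higher T0 level to a similar T60 level. For Uhrf1 it was -0.64 (SE 0.08, adjusted p = 1.53e-05) at T60 and for Dnmt3l -0.59 (SE 0.10, adjusted p = 0.00185) at T24. The other called differences went the opposite way, with a smaller decrease in MCM2-2A, and were found at T60 for Tet2 (0.99, SE 0.11, adjusted p = 4.35e-06) and Dnmt3b (0.67, SE 0.10, adjusted p = 9.77e-05). Over all features, 0.303% were called at T12, 2.18% at T24 and 9.1% at T60, beside 1, 2 and 4 of the 9 members. The Dnmt3l call at T24 was lost with any 1 of 5 libraries left out (-0.53 at the smallest), and the Uhrf1 call at T60 without number 2 of Ctrl MCM2-2A at T60 (-0.57). The Dnmt3a difference at T12 missed the threshold without the number 1 libraries of T0 (-0.52, adjusted p = 0.0523) and with any 1 of 10 libraries left out. For Tet3 at T60 the difference was -0.24 (SE 0.12) and for Tet1 0.20 (SE 0.13), neither called.

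With POLE4 depleted, none of the 9 genes passed the test. Of 90 comparisons of dPOLE4 with its control, 0 were called by edgeR and 0 by DESeq2, and 22 of the 90 had an unadjusted p below 0.05 in edgeR. All log2 fold changes lay between -0.49 and 0.27, and all 95% intervals between -0.66 and 0.44. Over all features, 0% were called in the WT background at every time but T60, 0.193% at T60 itself, while in the MCM2-2A background it was 0.0715% at T0, 0.404% at T12, 1.02% at T24, 2.25% at T60 and 0.304% at 96 h. An unadjusted p below 0.05 was found for 1150 of 17914 features (WT at T12) to 4302 of 18473 (MCM2-2A at T60). The dTAG acts on the protein, so the RNA of Pole4 is no check of the depletion.

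Within this range, Dnmt3b was the gene with the lowest values. It was lower with dTAG in 10 of 10 comparisons, by 0.02 to 0.49 on the log2 scale. Its groups did not overlap in 7 of these, against 0 (Dnmt3a) to 5 (Tet2) of 10 for the other members. The share of all features without overlap was not measured. After 96 h Dnmt3b was measured at 309.6, 292 and 323 CPM in dPOLE4 against 379, 407 and 415 CPM in Ctrl (-0.37, SE 0.07, adjusted p = 0.0936). In the MCM2-2A background it was at 268, 272 and 302 CPM against 366, 388 and 426 CPM (-0.49, SE 0.08, adjusted p = 0.0212). The groups did not overlap in either background, and neither value passed a threshold of the call in edgeR. In these 2 comparisons the replicate numbers pair the libraries, and with the replicate as a block the adjusted p was 6.66e-05 in the WT and 6.67e-09 in the MCM2-2A background, while DESeq2 gave 0.000799 and 9.69e-05. The size stayed under the fold threshold in each. Tet1 after 96 h showed 932, 1058 and 1026 CPM in dPOLE4 against 1148, 1168 and 1239.8 CPM in Ctrl (-0.23, SE 0.07, adjusted p = 0.2, and 0.00555 with the block) and 734, 710.2 and 734 CPM against 907, 881 and 933 CPM in MCM2-2A (-0.32, SE 0.06, adjusted p = 0.0501, and 2.05e-06 with the block). Tdg, too, had a mean below its control in 10 of 10 comparisons, by 0.03 to 0.30 on the log2 scale. Its 96 h libraries were at 35.5, 33.6 and 36.96 CPM in dPOLE4 against 40.8, 50.3 and 40.7 CPM in Ctrl (-0.30, SE 0.10, adjusted p = 0.245), and at 37.3, 33.3 and 39.1 CPM against 42.1, 40.4 and 45.8 CPM in MCM2-2A (-0.23, SE 0.10). Both pairs of groups were free of overlap. Over the 90 comparisons, the adjusted p alone was below 0.01 in 0 with edgeR, in 4 with DESeq2 and in 8 with the block, all of them lower with dTAG. Of the 8, 6 were in comparisons that met the rule for pairing, every r over 0.1 between libraries of the same number. The others were Tet2 and Tdg at T24 in MCM2-2A, which narrowly missed that rule with r of 0.0896, 0.162 and 0.227. Over all features and the same 10 comparisons, 0.755% had such an adjusted p with edgeR, 2.14% with DESeq2 and 2.74% with the block. At 96 h the block gave 3.96% of all features in the WT and 7.26% in the MCM2-2A background.

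For Tet2 and Tet3 at T60 the values went in opposite directions with dTAG. Tet2 had log2 fold changes of 0.27 (SE 0.08, adjusted p = 0.127) in WT and 0.24 (SE 0.06, adjusted p = 0.04) in MCM2-2A. Tet3 had -0.07 (SE 0.06) and -0.27 (SE 0.08, adjusted p = 0.0432). None of these passed the test. At this time 4 of the 6 marker lists did not overlap between dPOLE4 and Ctrl, and 5 of 6 between dPOLE4 MCM2-2A and Ctrl MCM2-2A, with neural, endoderm and fibroblast markers lower and trophoblast markers higher with dTAG in both, and their part was not tested.

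The dPOLE4 effect was also compared between the 2 backgrounds, and the RA response between cells with and without POLE4. Of 45 tests of the dPOLE4 effect in MCM2-2A minus that in WT, edgeR called 0, with 3 at an unadjusted p below 0.05 and a lowest adjusted p of 0.306. Of 54 tests of the RA response with POLE4 depleted minus that of the control, it called 0 as well, with 6 at an unadjusted p below 0.05 and a lowest adjusted p of 0.154. Among all features, such an unadjusted p was found for 686 of 18555 (96 h) to 1922 of 18982 (T60) in the first kind of test. In the second kind it was found for 611 of 19581 (T24 in WT) to 2518 of 19306 (T60 in WT). Over all features, the first kind of test called 0.00526% at T0, 0.0159% at T12, 0.0351% at T24, 0.1% at T60 and 0% at 96 h. The second kind called 0% at T12 and T24 in both backgrounds, and at T60 0.0104% in WT and 0.254% in MCM2-2A, so few features of any kind were called. For Tet2 the T60 level in percent of T0 and the Tet3 rise go in the order Ctrl, dPOLE4, Ctrl MCM2-2A, dPOLE4 MCM2-2A, but the step that dPOLE4 adds to that order was 0.39 (SE 0.13) for Tet2 and -0.18 (SE 0.12) for Tet3 in WT, and 0.42 (SE 0.13) and -0.26 (SE 0.12) in MCM2-2A.

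**Figure D4:**
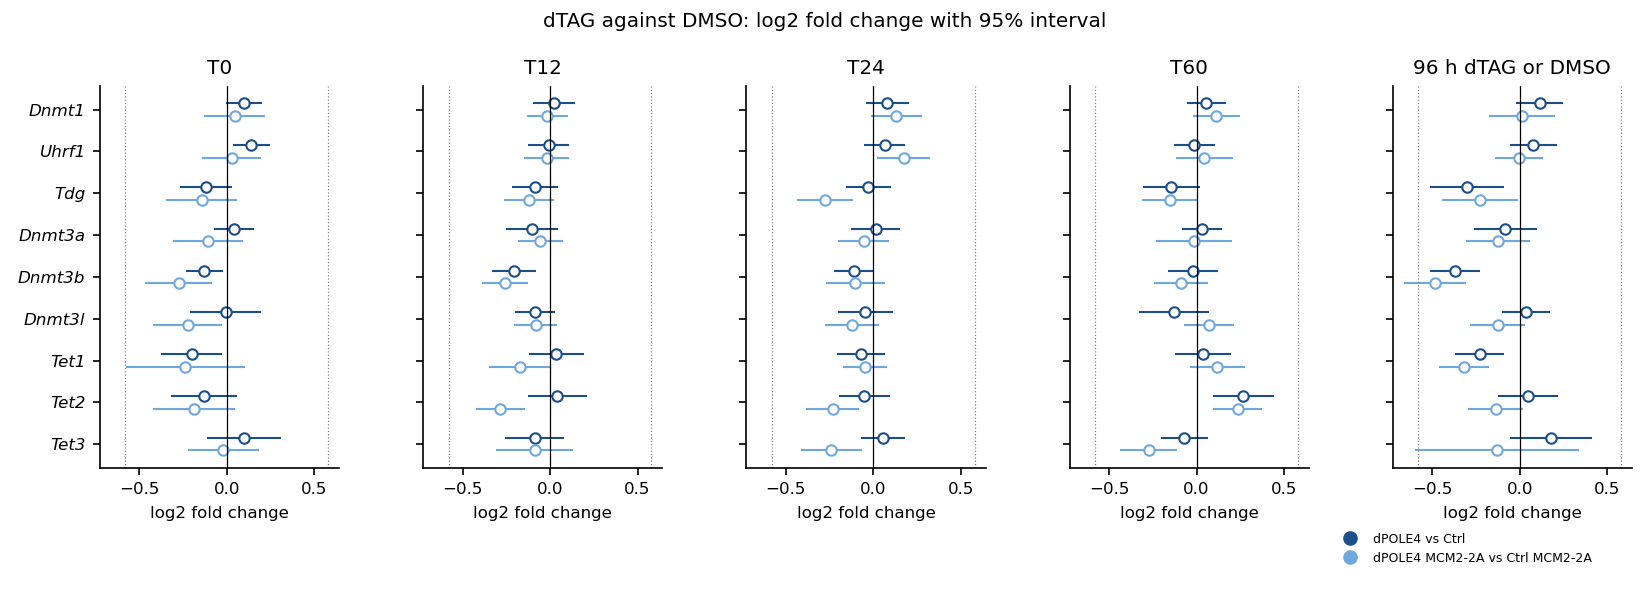
Log2 fold change of each gene in dTAG-treated cells against their DMSO control (x axis, with 95% intervals) at T0, T12, T24, T60 and 96 h, separately for both backgrounds, with hollow points for genes not called and dotted lines at 0.58 in both directions. All 90 points are hollow and lie between -0.49 and 0.27, and Dnmt3b lies left of 0 in every panel.

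A list of 47 further genes of the pathway gives the surroundings of these enzymes. In Ctrl at T60, 9 of them rose and 13 fell among 46 tested (50.6% of all features were called). The share called was near that of all features. This count and those of the shorter lists below are therefore not results about the pathway. Among the maintenance partners 4 of 6 fell: Hells, a chromatin remodeler needed for methylation (-1.50, SE 0.07, adjusted p = 6.2e-11), the deubiquitinase Usp7 (-0.98), the sliding clamp Pcna (-0.76) and Dppa3, which keeps UHRF1 off chromatin (-4.08). Among the de novo regulators 3 of 6 fell: Prdm14, a repressor of Dnmt3b in naive cells (-4.00), Zfp57 (-2.79) and Trim28 (-1.62), which together keep imprints. Among the readers of methylated DNA, Mbd2 (2.07) and Zbtb4 (2.61) rose. The Uhrf1 relative Uhrf2 rose (1.08), the only one of 2 tested related enzymes to do so.

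Of the 6 TET partners, Cxxc4 (1.39) and the isocitrate dehydrogenase Idh2 (0.79) rose and Sall4 (-1.04) fell. In the methyl donor cycle 2 of 5 fell, the S-adenosylmethionine synthetase gene Mat2a (-1.32) and Ahcy, which clears S-adenosylhomocysteine (-0.87). The excision repair list was split, with Smug1 (0.89), Neil3 (1.14) and Gadd45g (1.45) higher and Ung (-1.49), Apex1 (-0.96) and Parp1 (-1.06) lower among 13. At T60 the counts over the whole list were 9 higher and 16 lower in dPOLE4, 10 and 17 in Ctrl MCM2-2A and 8 and 18 in dPOLE4 MCM2-2A, among 47 tested in each, where 48.1%, 47.5% and 42.2% of all features were called. Over all 12 comparisons with T0, Dppa3, Prdm14 and Zfp57 fell in 12 of 12.

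Between backgrounds, 2 of the 47 were higher and 2 lower in Ctrl MCM2-2A at T0, a smaller share than the 18.9% of all features called. The abasic site endonuclease gene Apex1 was at 200.3 against 89.01 CPM (1.15, SE 0.05, adjusted p = 5.8e-08), and together with the glycosylase gene Neil2 (1.86, SE 0.20, adjusted p = 1.72e-05) it was higher in 10 of 10 comparisons. Both genes lie on chromosome 14, and the genes within 2 Mb had median log2 fold changes of 1.04 over 32 genes around Apex1 and 1.03 over 28 genes around Neil2 in the same comparison. The other genes tested on chromosome 14 had a median of 0.23. Dppa3 was at 6.77 against 28.4 CPM (-2.09, SE 0.18, adjusted p = 2.55e-06) and lower in 8 of 10 comparisons, with a median of -0.12 over 29 genes around it. The other lower gene was Zbtb38, a reader of methylated DNA (-0.60, SE 0.08, adjusted p = 0.000117), called in 3 of 10 comparisons, with a median of -0.05 over 25 genes around it. The ligase gene Lig3 was not called there (-0.53) but was lower in 6 of the 10 comparisons, and the genes around it on chromosome 11 had a median of -0.53 over 33 genes at T0. The other genes tested on chromosome 11 had a median of -0.48, so the lower values were not confined to the genes around Lig3. With POLE4 depleted, edgeR called 0 of the 468 tests of the 47 genes in the 10 comparisons, with 82 at an unadjusted p below 0.05 and a lowest adjusted p of 0.0116. Among all features, such an unadjusted p was found for 1150 of 17914 (WT at T12) to 4302 of 18473 (MCM2-2A at T60).

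The genes most alike in pattern to a member were taken from 11609 genes as those with the highest Pearson correlation of group mean log2 CPM over the 16 groups of the RA experiment, groups that share time points and lines. For Tet1 these were Zswim1 (r = 0.994), Gm46332 and Zfp141, and for Tet3 Fam171a1 (0.992), Gas1 and Zfand3. For Tet2 the closest was Mcf2 (0.984), for Dnmt3b Lap3 (0.978), followed by the Wnt receptor gene Fzd5 and Spry2, and for Dnmt3a the cohesin gene Rad21 (0.982), well ahead of Xylb (0.957). Uhrf1 was closest to Ydjc (0.983), Dnmt3l to Ccdc86 (0.958), Tdg to Foxp1 (0.938) and Dnmt1 to Alg1 (0.932). Among the members themselves, Dnmt3b was most alike to Tet1 (0.931) and to Dnmt3l (0.916).

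Per length of exon in Ctrl at T0, the order of the levels in RPKM was Uhrf1 (113), Dnmt3l (99.5), Dnmt3b (76.4), Dnmt1 (56.6), Tet1 (50.9), Tet2 (18.1), Dnmt3a (10.5), Tdg (8.49) and Tet3 (1.55). This order depends on the length used, here all exon bases, and with the longest transcript instead Dnmt3l lies above Uhrf1. Over the 16 groups of the RA experiment in order of CPM, Tet2 and Tet3 were the genes with the fewest neighbouring groups whose libraries overlapped, 10 of 15 each. For Tdg 15 of 15 neighbours overlapped and for Dnmt1 14 of 15. The widest range between group means was that of Tet1, 12.2-fold from Ctrl T60 to Ctrl T0, followed by Tet2 with 5.79-fold between the same groups. Dnmt3b ranged 5.14-fold, from dPOLE4 T60 to Ctrl MCM2-2A T0, and Dnmt3a 4.30-fold, from Ctrl T60 to Ctrl MCM2-2A T12. Dnmt1 ranged 1.33-fold and Tdg 1.42-fold.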

How the data were processed

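RNA of 60 libraries (20 groups of 3 biological replicates) had been rRNA-depleted and sequenced strand-specifically in pairs. The authors trimmed reads with cutadapt 4.2, aligned them to mm10 with STAR, allowing multimapping, and deposited whole-number counts per gene and repeat subfamily (TEcount), neither normalized nor pooled. Total counts per library lay between 7126100 and 46609151, and the lowest count of a member in a library was 129.

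The tests used edgeR 4.0.16 under R 4.3.3, with DESeq2 1.42.0, the tool of the study, as an alternative. The 2 groups of each comparison were filtered (filterByExpr, minimum count 10, minimum total 15), scaled by TMM over genes and repeats and tested with the quasi-likelihood F test. Calls needed a Benjamini-Hochberg adjusted p below 0.01 over all features and a log2 fold change beyond 0.58. Differences of responses were contrasts in fits of 4 groups. The procedure was tested on simulated data. p-values measure the spread between cultures of 1 line per background. CPM were scaled by TMM. Gene positions are from GENCODE M21 (mm10), and promoter windows from RefSeq on GRCm38.p6, where all 9 members were matched.

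All 9 members were named. Of the 47 pathway genes all were counted, and called ones could be named, largest first, apart from 1 item that is not reported here. The 3 genes with the highest correlation to a member could be named. The members and lists were chosen with earlier results of these data known. Replicate numbers are shared between groups; samples of the same number deviated together (every r over 0.1) in 5 of 10 dPOLE4 comparisons, 3 of 10 between backgrounds, 0 of 12 with T0 and 2 of 8 steps.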

Additional observations from a re-analysis of the deposited data

Results flagged for a closer look

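Differences of the RA response between the MCM2-2A and the WT background (Ctrl MCM2-2A minus Ctrl) passed the test of the difference itself in 7 cases, edgeR's quasi-likelihood test with adjusted p over all features. For Dnmt3a the value was -0.60 (SE 0.10, adjusted p = 0.00732) at T12, -0.67 (SE 0.08, adjusted p = 3.08e-05) at T24 and -1.27 (SE 0.10, adjusted p = 3.54e-08) at T60. For Dnmt3l it was -0.59 (SE 0.10, adjusted p = 0.00185) at T24, and for Uhrf1 -0.64 (SE 0.08, adjusted p = 1.53e-05) at T60. For Dnmt3b and Tet2 the sign was positive, 0.67 (SE 0.10, adjusted p = 9.77e-05) and 0.99 (SE 0.11, adjusted p = 4.35e-06) at T60. No outlier test was run within groups of 3 libraries.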

How the results depend on the processing

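No gene comparison called in any setting changed the sign of its log2 fold change under these alternatives or with 1 library left out. Of 111 called gene comparisons 108 kept the call with DESeq2, DESeq2 size factors, no filter, all groups in the fit and the replicate block, and 96 kept it with every library left out in turn. Without the fold change threshold the counts were 48 of 72 for steps between time points, against 26, and 39 of 90 between backgrounds, against 17. With 1 library left out, the counts lay between 60 and 62 for RA against T0, 25 and 28 for the steps, 15 and 18 between backgrounds, 5 and 7 for the difference of the RA response, and 0 and 0 for dPOLE4 against Ctrl and for the difference of the dPOLE4 effect. With the replicate number as a block, the counts were 61, 27, 17, 0, 6 and 0 in the order RA against T0, steps, backgrounds, dPOLE4 against Ctrl, difference of the RA response and difference of the dPOLE4 effect, and the block changed 0 calls in the 10 comparisons whose numbers pair the libraries. The calls lost in an alternative were Dnmt3a at T12 in Ctrl MCM2-2A (DESeq2, its size factors, all groups), Uhrf1 between dPOLE4 backgrounds at T0 (no filter) and the Dnmt3a difference of the RA response at T12 (block). Leaving out the 4 T0 libraries of number 1, an alternative chosen after seeing the data, gave 60 of 108 for RA against T0, 16 of 90 between backgrounds, 0 for dPOLE4, 6 for the difference of the RA response and 0 for that of the dPOLE4 effect. Of 120 family shares, 113 moved with the length of the longest transcript, by up to 12.5 points for TET and 7.73 for DNMT3 genes, and of 180 medians of neighbouring genes 13 moved with another window. With the longest transcript, the leading TET gene was another one in 5 of 20 groups, and the leading DNMT3 gene in 0 of 20. The 37 calls lost with a library left out kept a log2 fold change of at least 0.526 in size and an adjusted p of at most 0.0303.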
